A study of Mus musculus with 4 samples.

Results

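The Toll-like receptor genes of mouse bone marrow macrophages were examined, from the receptors through their co-receptors and adaptors to the kinases that act next. The list held 36 genes, and each was taken from the array probe sets annotated with a single gene. Such probe sets represented 33 of the 36, out of 18193 genes in all, by the brightest probe set of each gene over the 4 arrays. Ticam2, Irak4 and Traf3 were not analysed here.

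Macrophages were grown from bone marrow cells for 5 days with M-CSF, the growth factor of this lineage. There were 4 groups of 1 Affymetrix array each: Jmjd3-/- cells given lipopolysaccharide (LPS) at 100 ng/ml for 4 h, Jmjd3-/- cells left unstimulated, wild-type cells given LPS in the same way, and wild-type cells left unstimulated. Jmjd3, encoded by Kdm6b, is a histone demethylase that removes methyl groups from lysine 27 of histone H3, and the Jmjd3-/- cells are called knockout below. The sources used here do not give the strain, age and number of mice or the deleted part of the gene, nor whether the samples came from separate animals.

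Toll-like receptors recognise microbial molecules. Receptors at the cell surface read bacterial lipids and proteins, and those in endosomes read nucleic acids. LPS is carried by Lbp and Cd14 to the complex of Tlr4 and Ly96. That complex signals through the adaptors Tirap and Myd88 to the Irak kinases, Traf6 and the kinase Map3k7, and through Ticam1 to Tbk1 and Ikbke. The output is NF-kB and MAP kinase activity on the Myd88 side and interferon induction on the Ticam1 side.

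Levels are log2 intensities made by the authors with RMA, which corrects background, normalizes arrays and summarises the probes of a set, and differences are on the same log2 scale. A floor of log2 6 separated probe sets taken as measured from those near background. A probe set's level was not compared with that of another probe set. Of the 33 genes, 27 were at or above the floor on all 4 arrays and 4 below it on all 4. Ticam1 was at or above it on 3 arrays and Lbp on 1. The knockout minus wild type and LPS minus unstimulated differences of single arrays have no replicate check and no p-value. An LPS effect common to knockout and wild-type cells and a genotype effect common to stimulated and unstimulated cells were tested with limma on all 4 arrays. Here a call is a Benjamini-Hochberg adjusted p below 0.05 over 9385 genes, and the words rose and fell are kept for calls. The residual of a gene in that model is the difference between both LPS responses, with 1 degree of freedom. limma combined it with the spread of other genes of similar intensity, at 3.84 prior degrees of freedom. The standard error (SE) is therefore not a gene's own spread alone, though very unequal responses make it larger. The p-values rest on these 4 arrays and hold no spread between replicates.

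The targeted gene, macrophage identity and other cell types were checked before the members. The brightest Kdm6b probe set is of the x_at class, whose probes can also match other sequences. On it Kdm6b read 10.82 with LPS and 9.82 unstimulated in knockout cells, against 11.23 with LPS and 10.33 unstimulated in wild-type cells. Another probe set read 6.07 with LPS and 5.35 unstimulated in knockout cells, against 5.22 with LPS and 4.71 unstimulated in wild-type cells, and so ran the other way near the floor. The remaining probe set was under the floor on all 4 arrays, between 2.91 and 4.19. These probe sets do not check the labels, since their place relative to the deletion is not known. Of 9 macrophage markers, 9 reached the floor on each knockout array and 8 on each wild-type array. In the knockout 2 of them rose, Cd163 and Fcgr1, and 1 fell, Itgam. Cd163, a scavenger receptor, read 7.99 with LPS and 8.41 unstimulated in knockout cells, against 3.27 with LPS and 3.99 unstimulated in wild-type cells, both under the floor. Of 11 granulocyte and precursor markers 9 rose and 1 fell in the knockout, and their mean log2 level was 10.50 with LPS and 10.72 unstimulated in knockout cells, against 6.41 with LPS and 6.10 unstimulated in wild-type cells. Of 12 stromal markers past the floor 10 rose in the knockout and none fell. Means over 13 stromal markers were 9.03 with LPS and 9.12 unstimulated in knockout cells, against 5.52 with LPS and 5.09 unstimulated in wild-type cells. The stromal markers Col3a1, Col6a1, Pdgfra, Postn and Loxl1 reached the floor only on knockout arrays. So did the granulocyte and precursor markers Ngp, Ltf, Mpo, Elane and Prtn3. The rises of these genes are measured against background readings in wild-type cells. Among 6 dendritic cell markers past the floor 3 fell in the knockout and 1 rose, and the dendritic markers Flt3, Xcr1, Siglech and Cd209a were below the floor on all 4 arrays. With LPS 4 of the 6 dendritic markers rose. Of 5 mast cell and basophil markers past the floor 3 fell, Fcer1a, Mcpt8 and Gata2. The 2 T cell markers past it, Cd3e and Cd3g, both fell. Each of these genes reached the floor only on wild-type arrays, so its fall is measured against background readings in the knockout. The T cell markers Cd4 and Cd8a and the B cell markers Cd79a and Ms4a1 were below the floor throughout. Over all 9385 genes tested 6.39% rose and 3.12% fell in the knockout, and 11.2% rose and 18.8% fell with LPS. In such bulk samples fewer cells of a type and less RNA per cell cannot be told apart, and the part of these other cell types in the differences between genotypes below was not tested.

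Sequence before annotated starts of the members was taken from the RefSeq promoter table of build GRCm38.p6. It matched 26 of the 33 genes with 33 windows of 250 bases, each before an annotated start that need not be the outermost. Both strands were searched for the NF-kB consensus, for the core of the interferon-stimulated response element (a pair of GAAA runs with 2 bases of any kind between them), for the AP-1 site TGANTCA, for the cAMP response element TGACGTCA and for the interferon-gamma activated site TTCNNNGAA. The windows printed here were chosen because their genes were 2-fold or more higher with LPS in both genotypes and held a match to the NF-kB consensus or the interferon element. Peli1 was added as an example of a gene of similar response that held neither. Pik3ap1, Irak3, Ticam1 and Ikbke, also 2-fold or more higher in both genotypes, likewise held neither and are not printed. Capitals mark those matches, and each sequence runs 5′ to 3′ on the strand of its gene.
Tlr3, chr8:45410381-45410630, minus strand: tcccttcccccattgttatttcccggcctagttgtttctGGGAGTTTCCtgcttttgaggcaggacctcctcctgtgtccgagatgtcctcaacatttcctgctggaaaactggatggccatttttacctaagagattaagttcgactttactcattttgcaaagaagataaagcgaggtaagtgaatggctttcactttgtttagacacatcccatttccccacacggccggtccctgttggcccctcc
Tlr2, chr3:83841609-83841858, minus strand: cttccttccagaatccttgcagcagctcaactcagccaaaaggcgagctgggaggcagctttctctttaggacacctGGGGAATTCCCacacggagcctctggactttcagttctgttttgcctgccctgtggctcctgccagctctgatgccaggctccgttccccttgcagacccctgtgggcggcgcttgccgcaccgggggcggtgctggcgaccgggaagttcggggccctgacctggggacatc
Tlr6, chr5:64959167-64959416, minus strand: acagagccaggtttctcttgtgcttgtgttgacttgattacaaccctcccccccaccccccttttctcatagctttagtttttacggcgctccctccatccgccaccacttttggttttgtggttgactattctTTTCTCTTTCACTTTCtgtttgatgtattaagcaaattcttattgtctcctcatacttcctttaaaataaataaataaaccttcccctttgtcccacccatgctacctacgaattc
Myd88, chr9:119340019-119340268, minus strand: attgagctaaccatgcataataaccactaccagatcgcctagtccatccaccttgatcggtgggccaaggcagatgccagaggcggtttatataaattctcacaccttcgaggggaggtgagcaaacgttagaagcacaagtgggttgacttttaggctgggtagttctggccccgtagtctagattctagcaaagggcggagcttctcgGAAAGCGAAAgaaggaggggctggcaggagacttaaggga
Peli1, chr11:21091074-21091323, plus strand: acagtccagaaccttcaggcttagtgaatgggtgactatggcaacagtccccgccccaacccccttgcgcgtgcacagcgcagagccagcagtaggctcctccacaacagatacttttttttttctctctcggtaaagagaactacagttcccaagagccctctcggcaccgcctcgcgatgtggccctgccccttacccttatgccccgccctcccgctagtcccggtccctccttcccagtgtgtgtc

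The NF-kB match of Tlr3 lay 202 to 211 bases before the start used here, and overlapping matches of Tlr2 lay 163 to 173 bases before the start used. Overlapping interferon elements of Tlr6 lay 101 to 116 bases before one of its starts, and that of Myd88 31 to 40 bases before its start. The annotated spans of the minus-strand genes Tlr3, Tlr2 and Tlr6 run past the starts used, to positions 45411075, 83841824 and 64970942. The matches of these genes therefore lie inside the annotated genes. The NF-kB consensus was present in 3 of the 33 windows of the members (9.09%), against 3.9% of all 32851 promoter windows, and the interferon element in 2 of them (6.06%), against 2.98%. The AP-1 site was in 3.03% of the members' windows and 6.75% of all windows, and the interferon-gamma activated site in 9.09% and 7.02%. The cAMP response element was in none of the members' windows and in 1.55% of all. A match is a description of letters, not of a bound site.

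With LPS, 16 of the 29 genes past the floor rose, 2 fell and 11 did not pass. Among all 9385 genes tested 11.2% rose and 18.8% fell. The median LPS effect was 0.70 over the 29 genes and -0.22 over all genes tested. In single arrays of knockout cells, 9 of 29 were 2-fold or more higher with LPS and 1 was lower, against 11% and 15.5% of all genes counted. In wild-type cells 11 of 28 were higher and none lower, against 9.86% and 14.3%. The 9 genes counted in knockout cells, Tlr2, Tlr3, Tlr6, Myd88, Ticam1, Pik3ap1, Irak3, Peli1 and Ikbke, were all among the 11 of wild-type cells. The shared calls depended on both terms of the model: fitted without genotype, Tlr3 and Peli1 passed and the other 16 did not. With both terms kept, 11 of the 18 passed in every alternative, and Tlr7, Cd180, Ticam1, Irak2, Tab2, Tbk1 and Tollip did not in at least 1.

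**Figure D1:**
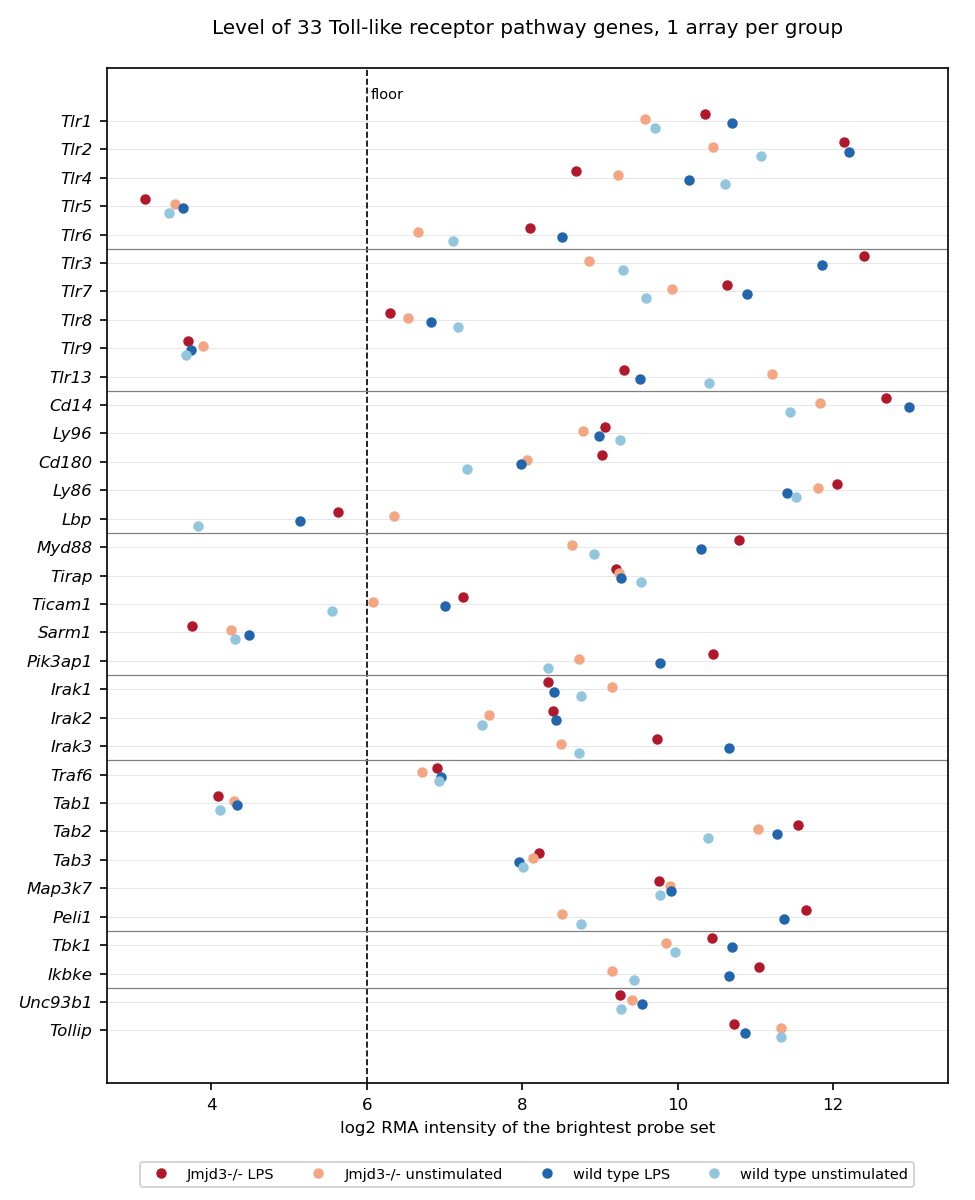
Level of each of the 33 genes on each of the 4 arrays, as log2 RMA intensity of its brightest probe set, with 1 point per array and horizontal rules between groups of genes by role. Tlr5, Tlr9, Sarm1 and Tab1 lie left of the dashed floor at log2 6 on all arrays, and Tlr4 is lower on both Jmjd3-/- arrays than on both wild-type arrays.

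Among the surface receptors past the floor, 3 of 4 rose with LPS. Tlr2, which recognises bacterial lipoproteins in pairs with Tlr1 or Tlr6, read 12.14 with LPS and 10.46 unstimulated in knockout cells, and 12.20 with LPS and 11.07 unstimulated in wild-type cells. Both LPS arrays thus lay above both unstimulated arrays. Tlr2 rose by 1.41 (SE 0.18, limma adjusted p = 0.00979, higher in both genotypes). Its partners moved the same way. Tlr6 read 8.10 with LPS and 6.66 unstimulated in knockout cells, and 8.51 with LPS and 7.10 unstimulated in wild-type cells. Tlr1 read 10.35 with LPS and 9.58 unstimulated in knockout cells, and 10.70 with LPS and 9.71 unstimulated in wild-type cells. LPS arrays did not overlap with unstimulated arrays for either gene, and Tlr6 rose by 1.42 and Tlr1 by 0.89 (limma adjusted p = 0.0101 and 0.0243). Tlr5, the flagellin receptor, was below the floor throughout, between 3.15 and 3.64.

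Tlr4, the receptor of LPS itself, was the 1 member called between genotypes. It read 8.69 with LPS and 9.24 unstimulated in knockout cells, against 10.15 with LPS and 10.61 unstimulated in wild-type cells. Both knockout arrays lay below both wild-type arrays, 2.74-fold lower with LPS and 2.60-fold lower unstimulated. Tlr4 fell by 1.42 in the knockout (SE 0.18, limma adjusted p = 0.0134, lower in both states). Of its 4 probe sets, 3 reached the floor on at least 2 arrays. The next brightest read 6.81 with LPS and 6.68 unstimulated in knockout cells, against 8.20 with LPS and 8.27 unstimulated in wild-type cells. The third read 5.21 with LPS and 5.29 unstimulated in knockout cells, both under the floor, against 6.67 with LPS and 7.44 unstimulated in wild-type cells. Knockout arrays were therefore lower on each of the 3, with knockout minus wild type differences averaging -1.42, -1.49 and, against background readings, -1.80 over both states, while the dimmest probe set lay between 3.01 and 3.23 on all arrays. Of the 9 macrophage markers, Itgam likewise fell in the knockout, by 1.04, Fcgr1 rose by 0.76 and Cd163 rose as given above. The other 6, Csf1r (0.06), Lyz2 (-0.27), Adgre1 (0.53), Cd68 (0.19), Mrc1 (0.28) and Mertk (-0.77), did not pass. The Tlr4 call did not hold without the LPS term (limma adjusted p = 0.326) and held in the other alternatives. With LPS, Tlr4 differed by -0.54 in knockout and -0.47 in wild-type cells and did not pass (limma adjusted p = 0.0898), and the next brightest probe set differed by 0.03 on average.

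**Figure D2:**
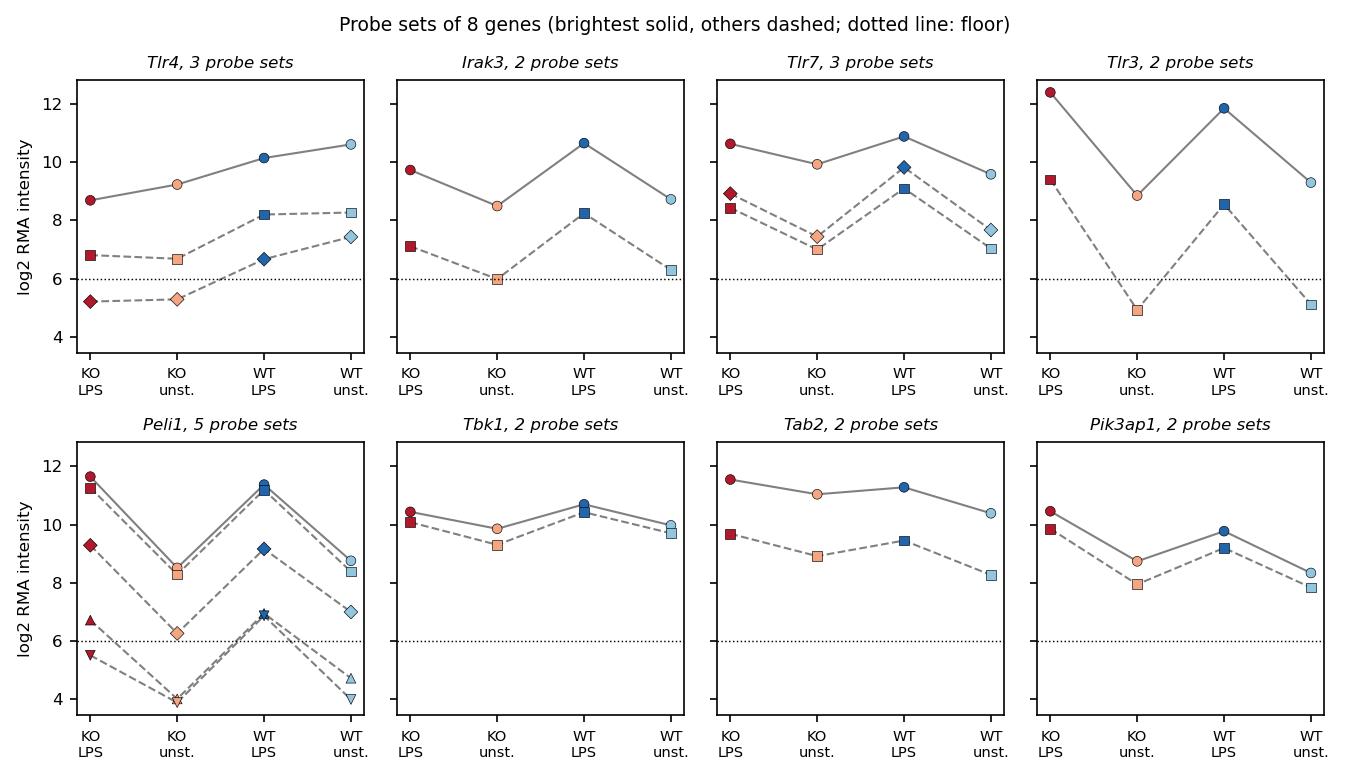
Levels of the probe sets that reached log2 6 on at least 1 array for 8 genes, as log2 RMA intensity on the arrays of Jmjd3-/- (KO, red and orange) and wild-type (WT, blue) cells, with LPS and unstimulated (unst., paler), and with lines joining values of 1 probe set. All 3 Tlr4 probe sets are lower on both knockout arrays, and the 5 Peli1 probe sets are higher on both LPS arrays than on both unstimulated arrays.

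The endosomal receptors did not move together. Tlr3 is the receptor of double-stranded RNA, and its window before an annotated start, with an NF-kB match, is shown above. Tlr3 read 12.40 with LPS and 8.86 unstimulated in knockout cells, and 11.85 with LPS and 9.30 unstimulated in wild-type cells. That is 11.7-fold higher in knockout and 5.87-fold higher in wild-type cells, and Tlr3 rose by 3.05 (SE 0.27, limma adjusted p = 0.00532, higher in both genotypes). The brightest Tlr3 probe set is of the s_at class, which matches several transcripts, and its other probe set was higher with LPS by a mean of 3.96, with unstimulated levels under the floor. The difference between the responses of Tlr3, 0.99, was just under 2-fold and has no test.

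Tlr7, a receptor of single-stranded RNA, read 10.63 with LPS and 9.93 unstimulated in knockout cells, and 10.89 with LPS and 9.59 unstimulated in wild-type cells. It was higher with LPS by 0.70 in knockout and 1.30 in wild-type cells and passed as a rise (SE 0.21, limma adjusted p = 0.0284), and its other probe sets gave mean differences of 1.75 and 1.82. On each of the 3 the LPS difference was smaller in the knockout. Tlr8, between 6.30 and 7.17, differed with LPS by -0.23 in knockout and -0.35 in wild-type cells, and its knockout minus wild type differences were -0.52 with LPS and -0.64 unstimulated. Tlr9, which recognises unmethylated CpG DNA, was below the floor, between 3.67 and 3.89.

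Tlr13, which in mice recognises bacterial ribosomal RNA, was the 1 receptor gene that fell with LPS. It read 9.31 with LPS and 11.22 unstimulated in knockout cells, and 9.51 with LPS and 10.40 unstimulated in wild-type cells. The LPS arrays lay below the unstimulated arrays, and Tlr13 fell by 1.40 (SE 0.29, limma adjusted p = 0.0259, lower in both genotypes). It was 3.77-fold lower with LPS in knockout and 1.85-fold lower in wild-type cells. Unc93b1, the transporter that brings endosomal receptors to their compartment, stayed between 9.26 and 9.55, differed by -0.15 in knockout and 0.27 in wild-type cells and did not pass.

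Of the 5 co-receptors, 2 rose with LPS. Cd14, which hands LPS to the Tlr4 complex, read 12.68 with LPS and 11.83 unstimulated in knockout cells, and 12.98 with LPS and 11.45 unstimulated in wild-type cells. The LPS arrays were the higher ones, and Cd14 rose by 1.19 (limma adjusted p = 0.0149). Ly96, the LPS-binding subunit beside Tlr4, stayed between 8.78 and 9.26 on all arrays, differing with LPS by 0.28 in knockout and -0.28 in wild-type cells. The lower Tlr4 level in the knockout thus stood beside a Ly96 genotype effect of -0.20 and a Cd14 genotype effect of 0.04, neither of which passed (limma adjusted p = 0.624 and 0.922).

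Cd180 and Ly86 encode a receptor and its partner that resemble Tlr4 and Ly96. Cd180 read 9.02 with LPS and 8.06 unstimulated in knockout cells, against 7.99 with LPS and 7.29 unstimulated in wild-type cells. It rose with LPS by 0.83 (limma adjusted p = 0.0344). Its genotype effect was 0.90 (SE 0.19), with higher values in both states, and missed the threshold (limma adjusted p = 0.0554). Ly86 stayed between 11.41 and 12.05. Knockout values were the higher ones here too, by 0.65 with LPS and 0.28 unstimulated, and did not pass (limma adjusted p = 0.14).

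Lbp, the serum protein that extracts LPS from bacteria, read 5.63 with LPS and 6.34 unstimulated in knockout cells, and 5.14 with LPS and 3.82 unstimulated in wild-type cells. It reached the floor only on the unstimulated knockout array, so its differences rest on background readings. The granulocyte and stromal markers that were high on the knockout arrays are given above, and their part in the Lbp reading was not tested.

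Among the adaptors past the floor, 3 of 4 rose with LPS. Myd88, the adaptor shared by nearly all Toll-like receptors, read 10.80 with LPS and 8.64 unstimulated in knockout cells, and 10.29 with LPS and 8.92 unstimulated in wild-type cells. Ticam1, the adaptor of Tlr3 and of the interferon side of Tlr4, read 7.24 with LPS and 6.07 unstimulated in knockout cells, and 7.01 with LPS and 5.55 unstimulated in wild-type cells, the last under the floor. For both genes the LPS arrays lay above the unstimulated arrays. Myd88 rose by 1.76 (SE 0.25) and Ticam1 by 1.31 (SE 0.24), with limma adjusted p = 0.0121 and 0.0199. The only Ticam1 probe set is of the s_at class, which matches several transcripts. Pik3ap1, an adaptor that links the receptors to phosphoinositide kinase, read 10.46 with LPS and 8.74 unstimulated in knockout cells, and 9.77 with LPS and 8.34 unstimulated in wild-type cells. It rose by 1.58 (limma adjusted p = 0.0092), and its other probe set gave a mean of 1.64. Tirap, which bridges Tlr4 to Myd88, stayed between 9.21 and 9.53 and did not pass. Sarm1, an adaptor that inhibits Ticam1, was below the floor, between 3.75 and 4.48.

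**Figure D3:**
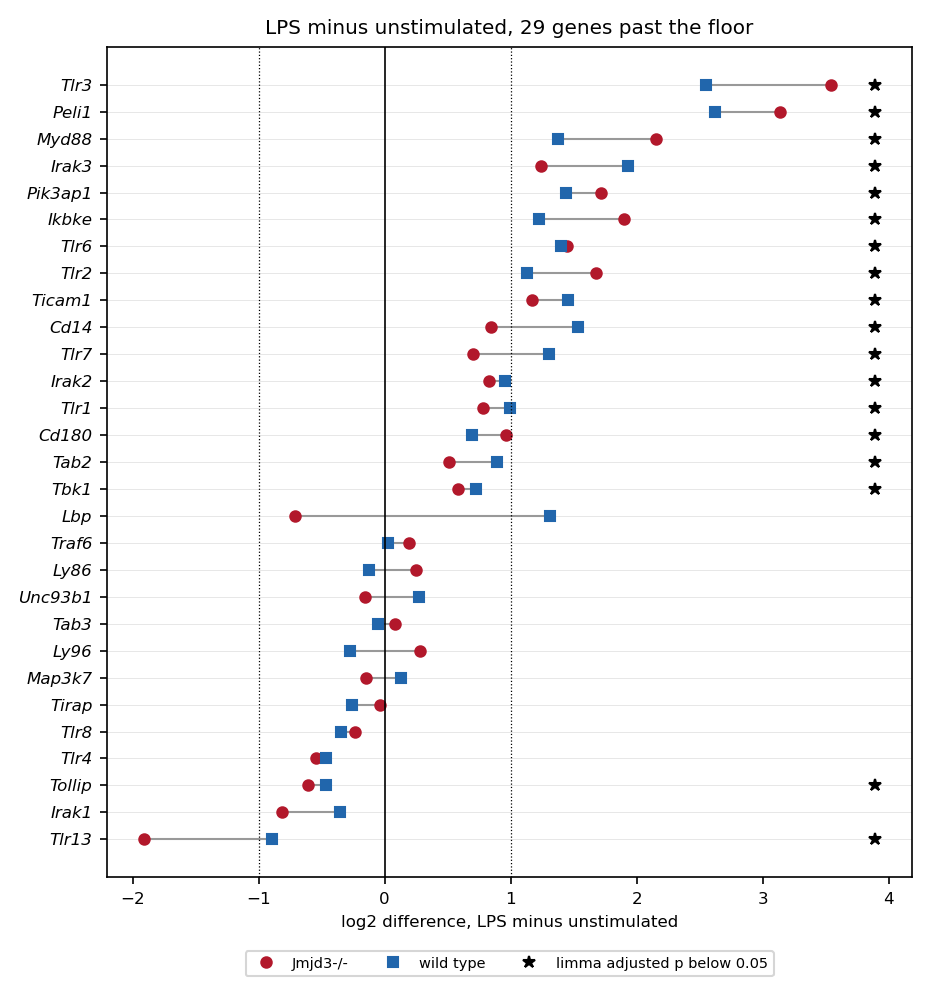
LPS minus unstimulated log2 difference in Jmjd3-/- (circles) and wild-type (squares) cells for the 29 genes past the floor, ordered by the shared LPS effect, with stars for limma adjusted p below 0.05 and dotted lines at 2-fold. The stars mark 16 genes that rose and 2, Tlr13 and Tollip, that fell.

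Of the Irak family, 2 of 3 measured genes rose. Irak3, a family member that restrains signalling, read 9.73 with LPS and 8.50 unstimulated in knockout cells, and 10.66 with LPS and 8.73 unstimulated in wild-type cells. Its LPS arrays were the higher ones, and it rose by 1.58 (SE 0.24, limma adjusted p = 0.0136). With LPS the knockout minus wild type difference was -0.92 on this probe set and -1.13 on the other, while the genotype effect over both states did not pass (limma adjusted p = 0.232). Irak2, a kinase-like member that sustains late signalling, read 8.40 with LPS and 7.57 unstimulated in knockout cells, and 8.43 with LPS and 7.48 unstimulated in wild-type cells. Its values with LPS were close in both genotypes, and it rose by 0.89 (limma adjusted p = 0.0262). Irak1, the kinase that is used early and then degraded, lay between 8.33 and 9.15, differed by -0.82 in knockout and -0.35 in wild-type cells and did not pass (limma adjusted p = 0.0957). Its 3 probe sets past the floor were each lower with LPS in both genotypes, with mean differences of -0.59, -0.75 and -0.80. The brightest is of the x_at class, and only on it were the LPS differences clearly unequal between genotypes. The others gave -0.75 in both genotypes, and -0.81 in knockout and -0.78 in wild-type cells.

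Downstream of the Irak kinases, the ubiquitin ligase gene Peli1 stood apart from the genes of the Map3k7 complex. Peli1 read 11.65 with LPS and 8.51 unstimulated in knockout cells, and 11.37 with LPS and 8.75 unstimulated in wild-type cells. It was 8.79-fold higher with LPS in knockout and 6.14-fold higher in wild-type cells, and rose by 2.88 (SE 0.21, limma adjusted p = 0.00344). Its 5 probe sets gave mean LPS differences between 2.25 and 2.90, the lowest 2 of them with unstimulated readings under the floor. Tab2, a ubiquitin-binding partner of Map3k7, read 11.55 with LPS and 11.04 unstimulated in knockout cells, and 11.28 with LPS and 10.39 unstimulated in wild-type cells. The unstimulated wild-type array was the lowest, and Tab2 rose by 0.70 (limma adjusted p = 0.0367). Traf6, the ligase that activates the complex, stayed between 6.71 and 6.96, Tab3 between 7.96 and 8.22 and Map3k7 between 9.76 and 9.91, and none of the 3 passed for LPS or genotype (smallest limma adjusted p = 0.578). Tab1, another partner, was below the floor, between 4.08 and 4.33.

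Both kinases of the interferon side rose with LPS. Ikbke, the inducible kinase of the pair, read 11.05 with LPS and 9.15 unstimulated in knockout cells, and 10.66 with LPS and 9.44 unstimulated in wild-type cells. Tbk1, its constitutive relative, read 10.44 with LPS and 9.85 unstimulated in knockout cells, and 10.69 with LPS and 9.97 unstimulated in wild-type cells. LPS arrays were above unstimulated arrays for both, more widely for Ikbke. Ikbke rose by 1.56 and Tbk1 by 0.65 (limma adjusted p = 0.0128 and 0.0441). The brightest Tbk1 probe set is of the s_at class, and the other Tbk1 probe set gave a mean LPS difference of 0.75. Tollip, an inhibitor that binds the Irak kinases, read 10.73 with LPS and 11.34 unstimulated in knockout cells, and 10.87 with LPS and 11.33 unstimulated in wild-type cells. It fell by 0.54 (limma adjusted p = 0.0483), where the median of all genes was -0.22. That call was lost in 8 alternatives and kept in 2.

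Between genotypes, 1 of the 29 genes fell in the knockout, Tlr4, and none rose, against 3.12% and 6.39% of all 9385 genes. Before adjustment 4 of the 29 were higher and 2 lower in limma at p below 0.05, where 15.2% of all genes were higher and 9.2% lower. The median genotype effect was 0.03 over the 29 genes and 0.05 over all genes tested. In single arrays with LPS, Cd180 was 2.05-fold higher and Tlr4 lower, out of 28 genes, where the shares over all genes counted were 9.76% higher and 5.65% lower. In unstimulated cells Lbp was higher and Tlr4 lower, out of 29 genes, where the shares over all genes were 9.54% higher and 5.74% lower. Lbp entered that count only through the unstimulated knockout array, the only array on which it reached the floor. Its difference is measured against background readings in wild-type cells.

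**Figure D4:**
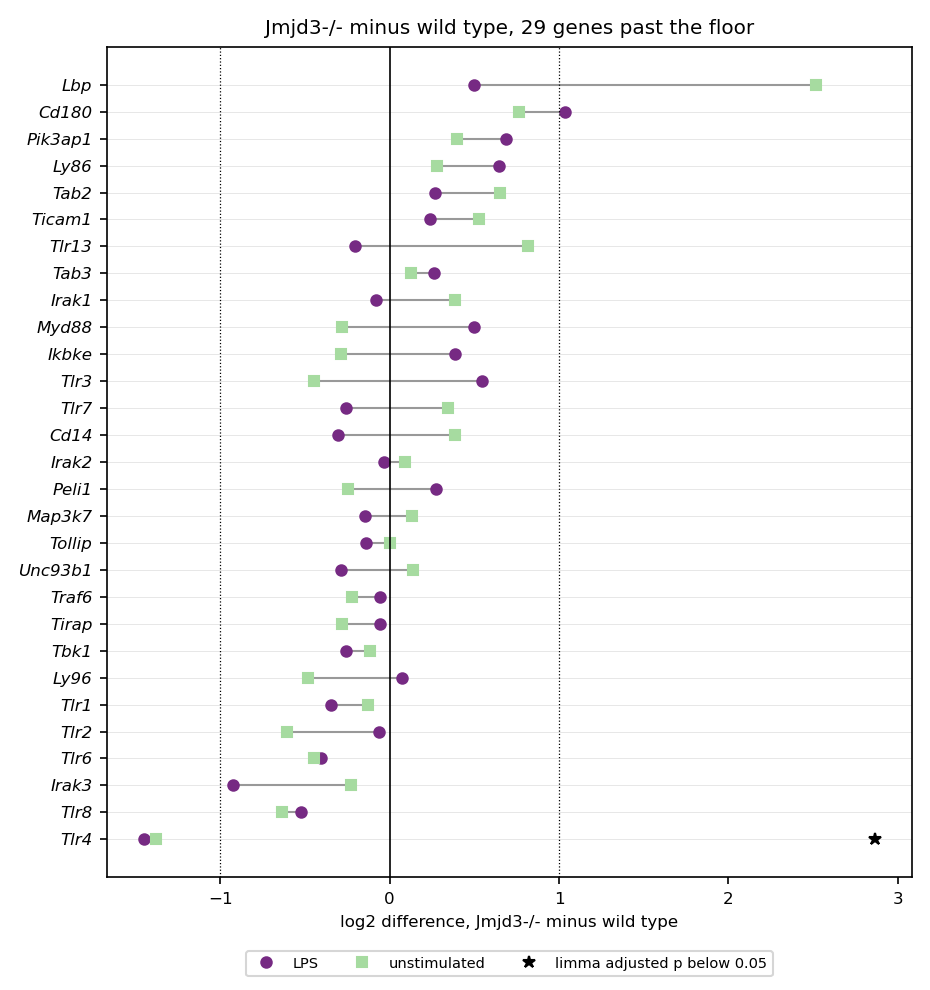
Jmjd3-/- minus wild type log2 difference with LPS (circles) and unstimulated (squares) for the 29 genes past the floor, ordered by the shared genotype effect, with a star for limma adjusted p below 0.05 and dotted lines at 2-fold. Tlr4 lies near -1.4 in both states, most genes lie within 1 of 0, and the Lbp points rest on readings near background.

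The LPS responses of both genotypes were set against each other without a test. The signed difference between the responses, knockout minus wild type, was above 0 for 14 of the 29 genes and below 0 for 15. For a gene lower with LPS, such as Tlr13, a value below 0 means a larger decrease in the knockout. The median of this difference was -0.08 over the 29 genes and -0.03 over all genes tested. Differences between the responses of 2-fold or more were found for Tlr13 (-1.02) and Lbp (-2.02), both lower in the knockout. Over all genes 4.73% were that much lower and 5.19% that much higher. Lbp was counted only because it reached the floor on the unstimulated knockout array, where it read highest, and its other readings were near background. With 64 added to the linear values it was at -0.70 and was not counted. These counts lay close to the limit: Tlr13 was at -0.96 with arrays centred on the median and -0.98 with 64 added to the linear values, and Tlr3, at 0.99 here, was past it under 4 alternatives, at up to 1.05. The genes next to these were Myd88 at 0.78 on the higher side, and Irak3 at -0.69 and Cd14 at -0.69 on the lower side.

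Genes with other roles in the pathway were taken from a list of 80, of which 68 were measured and 66 passed the floor. With LPS 33 rose and 7 fell, where 11.2% of all genes tested rose and 18.8% fell. In the knockout none rose and 3 fell, where 6.39% of all genes tested rose and 3.12% fell. The median LPS effect was 0.69 in this list, close to the 0.70 of the members. All 7 cytokine outputs rose. Il6, an inflammatory cytokine, read 11.68 with LPS and 4.10 unstimulated in knockout cells, and 13.12 with LPS and 4.80 unstimulated in wild-type cells. Its unstimulated readings were under the floor, as were those of Il12b and Il10 in both genotypes and of Ccl5 in the knockout, so no size is given for these rises. Of 10 NF-kB and kinase complex genes 8 rose and none fell, of 8 genes of the interferon side 6 rose and none fell, and of 12 MAP kinase genes 5 rose and 2 fell. Of 10 chaperone and trafficking genes 1 rose and 3 fell, among them Rab7b (-1.70), a small GTPase that directs Tlr4 to lysosomes, and Cnpy3 (-1.45), a chaperone of the receptors. The MAP kinase kinase gene Map2k6 and the Peli1 relative Peli2 fell as well, both with LPS readings under the floor. Peli2 read 4.41 with LPS and 7.09 unstimulated in knockout cells, and 4.74 with LPS and 7.63 unstimulated in wild-type cells, the reverse of the order seen for Peli1.

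The genes of that list that fell in the knockout beside Tlr4 were Irf4, which competes with Irf5 for Myd88, Clec7a (-1.72), a receptor of fungal glucans, and Itgam (-1.04). Irf4 read 7.88 with LPS and 5.97 unstimulated in knockout cells, against 9.57 with LPS and 9.85 unstimulated in wild-type cells. The unstimulated knockout reading was just under the floor, and the shared effect passed with limma adjusted p = 0.0417. In single arrays with LPS 3 of 63 genes of the list passed 2-fold upward in the knockout, Fos (1.99), Lgmn (1.80) and Rab7b (1.01). Another 5 were lower, Clec7a (-1.89), Irf4 (-1.69), Il12b (-1.45), Il6 (-1.44) and Itgam (-1.03). The shares over all genes counted were 9.76% higher and 5.65% lower. Unstimulated, 1 of 61 was higher, Nfkbiz (1.10), and 10 were lower, against 9.54% and 5.74% of all genes counted. Those 10 were Ccl5 (-4.46), Irf4 (-3.88), Il1b (-3.36), Tlr12 (-2.35), Cxcl10 (-2.06), Nfkbie (-2.05), Tnf (-1.64), Clec7a (-1.55), Tnfaip3 (-1.53) and Itgam (-1.04). Unstimulated knockout readings of Ccl5, Irf4 and Tlr12 were under the floor. The cytokine genes Ccl5 and Il1b, among those 10, read 5.57, which is under the floor, and 6.72 in unstimulated knockout cells, against 10.03 and 10.09 in unstimulated wild-type cells, and with LPS they differed between genotypes by -0.01 and -0.72. Neither passed the shared genotype test (limma adjusted p = 0.271 and 0.128).

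Where a gene had several probe sets, they were compared. There were 65 probe sets for the 33 genes, and 17 genes had a single one. Among 20 further probe sets that reached the floor, from 12 genes, none differed from the brightest by more than 1 in the averaged effects. These are the LPS effect averaged over both genotypes and the genotype effect averaged over both states. The sign of the LPS effect differed for 4 of them, in Map3k7, Tirap and Tlr4, and that of the genotype effect for 9, in Irak1, Map3k7, Peli1, Tirap and Tlr7. None of these genes was called for that effect on its brightest probe set. For Map3k7 the LPS effect of the other probe sets past the floor ran between -0.79 and 0.33. Differences of single arrays could disagree more widely. Knockout minus wild type with LPS was -1.67 on a Traf6 probe set, against -0.06 on the brightest. It was -1.36 on a Peli1 probe set, against 0.27 on the brightest. Both of these dimmer probe sets reached the floor only on the wild-type LPS array.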

How the data were processed

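The authors deposited log2 probe set intensities, made with RMA per the submitters' processing notes, for 4 arrays, 1 per group. The RMA version was not given in the sources used here. Of 45101 probe sets, 64 controls were left out, 34945 named 1 gene and 932 several. Those naming 1 gene were used, and 34741 matched a RefSeq gene identifier. The brightest probe set stood for its gene, genes counted when an array compared reached log2 6, and single differences of 2-fold or more were counted with no test. Shared effects were fitted with limma 3.58.1 in R 4.3.3 with Benjamini-Hochberg adjusted p-values, with genotype and LPS as additive terms, an intensity trend, 1 residual and 3.84 prior degrees of freedom. The fit was also run on simulated data with a common spread, equal LPS responses and no genotype effect. That setting differs from these arrays, so it is no check of the p-values given here. Computation used Python 3.11.15, numpy 2.4.6 and pandas 2.3.3. Array medians lay between 4.15 and 4.24, and 32.1% to 34.5% of probe sets per array reached the floor. The number of arrays limits the precision. Values of all arrays are printed for genes that passed a shared test or differed by 2-fold in 1 comparison, and the others by range, some with their differences. Of the other pathway genes, up to 4 of the largest rises and falls and 2-fold genotype differences were named. Members, gene lists, motifs and alternatives were chosen with earlier results of these data known. Alternatives covered the floor, the probe set per gene, the normalization, an offset and the model.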

Additional observations from a re-analysis of the deposited data

Results flagged for a closer look

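Tlr13 and Lbp stood out because the effect of 1 factor had opposite signs at the levels of the other and the LPS responses differed by 2-fold or more. For Tlr13 the knockout minus wild type difference was -0.20 with LPS and 0.82 unstimulated, and the difference between the responses was -1.02. For Lbp the LPS difference was -0.71 in knockout and 1.31 in wild-type cells, and the difference between the responses was -2.02, from readings at or near background. Neither difference was tested, since each group had 1 array. Opposite signs of any size were found for the LPS differences of 6 and for the genotype differences of 13 of the 29 genes past the floor. Some of these differences were near 0, as for Tollip between genotypes, at -0.14 with LPS and 0.0024 unstimulated. The share over all genes was not counted, so whether these counts are unusual was not tested.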

How the results depend on the processing

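No call or 2-fold difference of a member changed direction in any of the alternatives run. Of the 18 genes called for LPS, 11 kept their call in all alternatives that kept the additive model. Tollip, Cd180, Irak2, Ticam1, Tlr7, Tab2 and Tbk1 lost it in at least 1, Tollip in 7 of those, with an effect of -0.05 over the mean of its probe sets. Fitted without the genotype term, 2 passed, Tlr3 and Peli1, in place of 18. For genotype, Tlr4 kept its call in all alternatives but the fit without the LPS term, where 0 passed (limma adjusted p = 0.326, range 0.00648 to 0.326). With quantile normalization 2 passed in place of 1, Cd180 being the other. Counting 1.5-fold in place of 2-fold gave 18 genes for LPS in knockout cells (14 higher, 4 lower, against 16.3% and 30.5% of all genes) and 17 in wild-type cells (16 and 1, against 16.2% and 27.6%). It gave 5 between genotypes with LPS (3 and 2, against 16.2% and 11.2%), 7 without (4 and 3, against 17.9% and 11.8%) and 8 between the responses (3 and 5, against 12.7% and 13%). With a floor of log2 8 the counts were 1 without LPS and 1 between the responses. With 64 added to the linear values they were 1 with LPS, 1 without and 0 between the responses. Between the responses, Tlr3 was counted as higher with the mean of probe sets (1.01), the brightest plain probe set (1.04), quantile normalization (1.02) and median centring (1.05), and Tlr13 was not counted with median centring (-0.96) or 64 added (-0.98). Quantile normalization gave 1 with LPS, and the mean of probe sets 1 without. The median LPS effect of all genes was -0.22 as reported, -0.02 with no floor, -0.00365 with 64 added, and within 0.1 of it under quantile normalization and median centring. No paired analysis was possible because each group had 1 array and so no replicate numbers to pair by. The additive model itself compares LPS within each genotype.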

Other observations

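The 33 promoter windows of the members held a median of 11 CpG dinucleotides in 250 bases, against 6 over all 32851 windows, and a median GC content of 54.8% against 52.4%. Among the members' windows the count ran between 0 for Tlr9 and 33 for a start of Tab2. The windows of Tlr2 and Tlr3 that held the NF-kB consensus had 11 and 6. Another window with the NF-kB consensus was that of Map3k7, with 28 CpG dinucleotides and an LPS effect of -0.01.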
